A study of Mus musculus with 2 samples.

Results

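The complement genes described are 9 of the 32589 genes in the files: C1qa, C1qb, C1qc, C4b, Colec11, C3, C7, Serping1 and C5ar1. They were found by gene symbol, and the list was chosen by the UMI counts of these same libraries, so their levels and ratios are a description with no test. Single-nucleus RNA-seq counts unique molecular identifiers (UMIs), 1 per captured RNA molecule, in nuclei isolated from mouse hearts. Each condition was measured once, so that 1 library stands for control and 1 for PD-1 inhibitor. The PD-1 inhibitor, an antibody against mouse PD-1, was given to male C57BL/6 mice, 8 weeks old at the start, into the abdomen at 5 mg/kg on days 1 and 14 of a cycle of 28 days, and control mice received PBS. How many hearts were used per library is not given in the sources used here. No difference between the libraries has a replicate check, and all intervals below are at 95% and cover counting error only.

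Complement is a cascade of plasma and tissue proteins that marks microbes and dying cells for removal. C1q starts the classical pathway and collectins start the lectin pathway, all pathways meet at the cleavage of C3, and the terminal proteins then build a pore in the target membrane. Macrophages are a known source of C1q, and stromal cells make many of the later components and inhibitors.

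The control library held 10197 barcodes and 13177525 UMIs, against 7967 barcodes and 10875248 UMIs for PD-1 inhibitor, and 48 barcode sequences occurred in both. After filtering, 9522 and 7644 nuclei were left, with medians of 1012 and 1055 UMIs. They were clustered without the complement genes and named from other marker genes, so each name stands for clusters that are like that cell type. The largest types were endothelial cells (ECs), with 2812 control and 2516 PD-1 inhibitor nuclei, fibroblasts (2367 and 1883), cardiomyocytes (1270 and 1080), mononuclear phagocytes (MPs, 1260 and 884), mural cells (594 and 422) and mesothelial cells (481 and 462). A level is the UMIs of a gene per 1000000 UMIs of the cell type (CPM). Log2 ratios set PD-1 inhibitor over control after 0.5 UMI was added to both sums, and are given where the sums hold at least 50 UMIs together.

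C1qa, C1qb and C1qc encode the 3 chains of C1q, the recognition molecule of the classical pathway. They lie on the minus strand of chromosome 4 within 18.675 kb, in GENCODE vM21 on GRCm38: C1qb (ENSMUSG00000036905) at chr4:136880129-136886187, C1qc (ENSMUSG00000036896) at chr4:136889804-136893065 and C1qa (ENSMUSG00000036887) at chr4:136895917-136898803. All 3 were highest in MPs and were higher there with PD-1 inhibitor. C1qa stood at 1131 CPM (1075 to 1190) in control MPs against 1641 (1563 to 1722) with PD-1 inhibitor, and its log2 ratio was 0.54 (0.44 to 0.64). C1qb stood at 1309 CPM (1249 to 1372) against 2126 (2037 to 2218), or 0.70 (0.61 to 0.79) as a log2 ratio. C1qc stood at 1372 CPM (1310 to 1436) against 2202 (2111 to 2296), or 0.68 (0.59 to 0.77). For each chain the level intervals of the libraries lay apart. They cover counting error only, and the share of all MP genes with such a gap is not given here.

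Other values moved in MPs along with C1q. The 16 MP marker genes, none of them a complement gene, together rose from 22345 to 30938 CPM, with Cd74 the most abundant and none at 0. Short genes also tended to be higher with PD-1 inhibitor: when genes were split by span into 5 groups of like size, the median log2 ratio in MPs was 0.22 in the shortest group, which holds the C1q genes, and -0.19 in the longest. Relative to the median of their own group, the log2 ratios were 0.32 for C1qa, 0.48 for C1qb and 0.46 for C1qc. The median mitochondrial share of UMIs per nucleus also rose in the larger of the 2 MP clusters, from 0.4996% to 0.831%, as it did in the pericyte-like cluster (0.388% and 0.741%) and in the fibroblasts led by Rgs17 and Fbn2 (0.720% and 0.999%), whereas in mesothelial cells it fell (1.77% and 1.26%). The part of these shifts in the C1q ratios was not tested further.

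A C1qb UMI was seen in 56.3% of control MP nuclei (Clopper-Pearson interval 53.6 to 59.1) and in 70.7% of PD-1 inhibitor MP nuclei (67.6 to 73.7). With every nucleus thinned to 500 UMIs, which left out no nucleus, the shares were 39.4% and 53.5%. Cardiomyocytes, which should lack the gene, had thinned shares of 2.13% in both libraries, and T cells had 4.22% and 2.59%. Both types lay far below MPs. Median depths were 903.5 and 966 UMIs in MPs, 1404 and 1431.5 in cardiomyocytes, and 845 and 884 in T cells. All 3 chains were seen together in 329 of 1260 control MP nuclei (26.1%) and in 399 of 884 PD-1 inhibitor MP nuclei (45.1%), or in 9.60% and 20.8% after thinning. At equal depth, MP nuclei of the PD-1 inhibitor library thus held each of the chains more often, and all 3 together more often.

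In the other large types C1q stayed low. C1qa reached 2.00% to 2.68% of its control MP level there, while the MP genes Mrc1 and F13a1 reached 0.893% to 2.05% and 1.54% to 2.85% of theirs in the same control types. Csf1r did likewise, except for 13.6% in control mesothelial cells. Thinned shares of fibroblasts with a C1q gene, from 0.845% to 2.02%, lay at or below the highest of cardiomyocytes (2.68%). Whether these low counts are background was not tested. In cardiomyocytes C1qb had 42.0 and 57.1 CPM (log2 ratio 0.44, 0.05 to 0.85) and C1qc 38.6 and 53.7 (0.47, 0.06 to 0.89), while for C1qa, at 30.3 and 32.8, the interval held 0 (0.11, -0.39 to 0.61). Thinning lowered the ratios of C1qb and C1qc to 0.044 and 0.021, while with no more than 5% mitochondrial UMIs per nucleus they were 0.78 and -0.12. The cardiomyocyte ratios thus did not hold at equal depth, and parted under the mitochondrial limit. In ECs the intervals of C1qa, C1qb and C1qc held 0, with log2 ratios of 0.002, 0.07 and -0.02. C1qc in fibroblasts went from 28.3 to 45.6 CPM (log2 ratio 0.69, 0.25 to 1.13), a level still 2.07% of that in MPs. This ratio was 0.51 at equal depth and 0.71 with no more than 5% mitochondrial UMIs. Both are given without an interval, so whether a difference remains at equal depth was not tested. In all fibroblasts the intervals of C1qa, at 22.6 and 22.2 CPM (-0.03, -0.59 to 0.52), and C1qb, at 25.5 and 32.1 (0.34, -0.15 to 0.82), held 0, although C1qb in the cluster led by Rgs17 and Fbn2 went from 27.3 to 43.6 (0.67, 0.11 to 1.24). C1qc made up 45.7% (39.1 to 52.3) of the C1q UMIs of PD-1 inhibitor fibroblasts, beside 36.9% in PD-1 inhibitor MPs. In control fibroblasts its share, 37.0% (30.6 to 43.9), held the 36.0% of control MPs. In PD-1 inhibitor ECs the share of C1qc was 31.2% (25.5 to 37.3), and in cardiomyocytes 37.4% (31.8 to 43.2). It was 39.1% (27.1 to 52.1) in mural and 26.2% (16.0 to 38.5) in mesothelial cells, and these intervals held the MP share. The fibroblast share was singled out among those of all chains, types and libraries, and was not tested.

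MPs formed 2 clusters. In the macrophage-like cluster, led by Ms4a14 and Ms4a7, C1qb had 1420 CPM in control nuclei and 2297 with PD-1 inhibitor (log2 ratio 0.69, 0.60 to 0.79). A smaller cluster, led by Cd209a and Klri1, was mixed, with 3 of 5 dendritic and 3 of 6 macrophage markers and with 27.8% of nuclei holding Mki67 or Top2a, and is called dendritic-like. There the levels of C1qb were 725 and 1153 CPM (0.67, 0.35 to 0.99). C1qc was also higher in the dendritic-like cluster, at 716 and 967 CPM (0.43, 0.10 to 0.77), while for C1qa, at 566 and 709 (0.33, -0.06 to 0.71), the interval held 0. At a clustering resolution of 2, C1qb went from 1491 to 2472 CPM in a sub-cluster high in Lyve1, Folr2 and Timd4 (0.73, 0.62 to 0.84) and from 1082 to 1562 in a sub-cluster high in Ccr2 (0.53, 0.36 to 0.70). C1qb was thus higher with PD-1 inhibitor in both sub-clusters. Other genes of the first sub-cluster moved too, with Lyve1 at 673 and 1199 CPM (0.83, 0.67 to 1.00), Folr2 at 429.9 and 764 (0.83, 0.62 to 1.04), Cd163 at 901 and 1392 (0.63, 0.48 to 0.78), Ccr2 at 35.8 and 109 (1.59, 0.93 to 2.31) and Cx3cr1 at 59.7 and 120.4 (1.01, 0.45 to 1.58). For Timd4, at 263 and 239 CPM (-0.13, -0.46 to 0.18), the interval held 0. In the second sub-cluster Ccr2 had 676 and 951 CPM (0.49, 0.27 to 0.72) and Cd163 242 and 352 (0.54, 0.17 to 0.91), and the part of a change in the makeup of either was not tested.

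C4b (ENSMUSG00000073418, chr17:34728380-34743882) encodes C4, which is cut once C1 or a lectin complex has bound. Its near copy C4a can share reads with it, so its counts are uncertain. Mesothelial cells, which line the heart's surface, had the highest C4b level among types with at least 50 UMIs, at 441 CPM (396 to 490) in control nuclei and 656 (608 to 707) with PD-1 inhibitor. This is a log2 ratio of 0.57 (0.38 to 0.76), and of 0.35 after thinning. The mesothelial nuclei differed in depth, with medians of 1302 and 1724 UMIs. A C4b UMI was seen in 24.9% and 37.0% of them, or in 14.6% and 19.0% after thinning, against 1.10% and 0.556% of thinned cardiomyocytes. The mesothelial C4b ratio was thus smaller at equal depth. The thinned values are given without an interval, and whether a difference remains there was not tested. MPs followed at 304 and 343 CPM (log2 ratio 0.17, -0.04 to 0.38) and fibroblasts at 99.1 and 116 (0.22, -0.03 to 0.47), where no difference was detectable at this depth. The fibroblast cluster led by Rgs17 and Fbn2 did differ, with 112 and 144 CPM (0.36, 0.07 to 0.65). Within MPs the macrophage-like cluster held 396 of 409 control and 339 of 345 PD-1 inhibitor UMIs of C4b. Glial cells, with only 31 and 10 nuclei, had 24 and 8 UMIs, or 717 CPM (460 to 1067) and 562 (243 to 1108).

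The proteases of the same step, C1ra and C1s1, were also highest in mesothelial cells and fibroblasts among the 6 large types. C1ra went from 438 to 608 CPM in mesothelial cells (log2 ratio 0.47, 0.28 to 0.67) and from 270 to 334 in fibroblasts (0.31, 0.16 to 0.46). C1s1 had 483 and 511 CPM in mesothelial cells (0.08, -0.11 to 0.27) and went from 308 to 416 in fibroblasts (0.43, 0.30 to 0.57) and from 222 to 315 in mural cells (0.50, 0.17 to 0.84). Both genes have a near copy, C1rb and C1s2, which can share their reads. C1ra in ECs had a log2 ratio of 0.67 (0.34 to 1.01), and in cardiomyocytes C1ra and C1s1, at no more than 30.8 CPM, had 0.81 and 0.88. The 10 fibroblast marker genes rose in these types as well, with summed levels of 2571 and 3508 CPM in ECs, 1391 and 2110 in cardiomyocytes and 3063 and 3465 in mural cells. Dcn, Gsn and Abca8a were the most abundant of them in these types in turn, and Dpep1 was at 0. Their part in the ratios of C1ra and C1s1, and in those of C3 and Serping1 in the same types, was not tested.

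Colec11 (ENSMUSG00000036655, chr12:28594173-28623377) encodes a collectin that binds sugars and starts the lectin pathway. It was highest in mural cells, the cells around small vessels, with 326 CPM (285 to 372) in control nuclei and 615 (547 to 690) with PD-1 inhibitor, a log2 ratio of 0.91 (0.66 to 1.17). The pericyte-like cluster, led by Lin7a and Kcnj8, held 225 of the 226 control UMIs and 292 of the 295 PD-1 inhibitor UMIs. Within it the level went from 412 to 741 CPM (0.84, 0.59 to 1.10). A Colec11 UMI was seen in 25.4% and 35.8% of mural nuclei, or in 15.8% and 26.1% after thinning, against 0.315% and 0.370% of thinned cardiomyocytes. The mural ratio was 0.47 when nuclei needed at least 500 genes, the lowest of 14 alternatives.

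ECs were the next source of Colec11, at 46.0 CPM (38.6 to 54.4) and 109 (96.9 to 121), with a log2 ratio of 1.24 (0.95 to 1.54). Their endocardial-like cluster, led by Nrg1 and H19, held 132 of 137 control and 302 of 315 PD-1 inhibitor UMIs. This cluster took 1429 of 2812 control and 1506 of 2516 PD-1 inhibitor EC nuclei, and within it Colec11 went from 84.8 to 172 CPM (1.01, 0.72 to 1.32). Thinned shares of ECs, 1.92% and 4.73%, lay above those of cardiomyocytes. Colec11 was thus higher with PD-1 inhibitor in 2 clusters of unlike type. In fibroblasts it had only 19 and 33 UMIs (1.08, 0.24 to 1.99).

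Of the other lectin pathway genes, the ficolin gene Fcna went from 77.4 to 141 CPM in MPs (log2 ratio 0.86, 0.49 to 1.24). Colec12 went from 52.4 to 40.3 CPM in ECs (-0.38, -0.74 to -0.02) and from 270 to 322 in mesothelial cells (0.25, 0.00 to 0.51). Masp1 reached 50 UMIs in cardiomyocytes only, where its interval held 0.

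C3 (ENSMUSG00000024164, chr17:57203970-57228136) encodes the protein at which the pathways meet. Mesothelial cells had the highest level, 5839 CPM (5672 to 6010) in control nuclei and 5382 (5242 to 5525) with PD-1 inhibitor. Here C3 was slightly lower with PD-1 inhibitor, with a log2 ratio of -0.12 (-0.17 to -0.06) that came to -0.012 after thinning. Fibroblasts followed with 1149 CPM (1110 to 1190) and 1400 (1352 to 1449), a log2 ratio of 0.28 (0.21 to 0.35). Both fibroblast clusters had this direction, from 1554 to 1797 CPM in the cluster led by Cilp and Cd248 (0.21, 0.11 to 0.31) and from 954 to 1110 in the cluster led by Rgs17 and Fbn2 (0.22, 0.12 to 0.32). In ECs, MPs, mural cells, T cells and B cells C3 lay between 138 and 192 CPM and no log2 ratio left 0. Thinned shares in these types, 5.71% to 7.81%, were near the 5.51% and 6.94% of cardiomyocytes. Whether such a like low share in all these types is background was not tested. Cardiomyocytes themselves had 103 and 141 CPM (0.45, 0.20 to 0.71), but the ratio left 0 in neither of their large clusters (0.39, -0.01 to 0.78, and 0.08, -0.27 to 0.44).

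**Figure D1:**
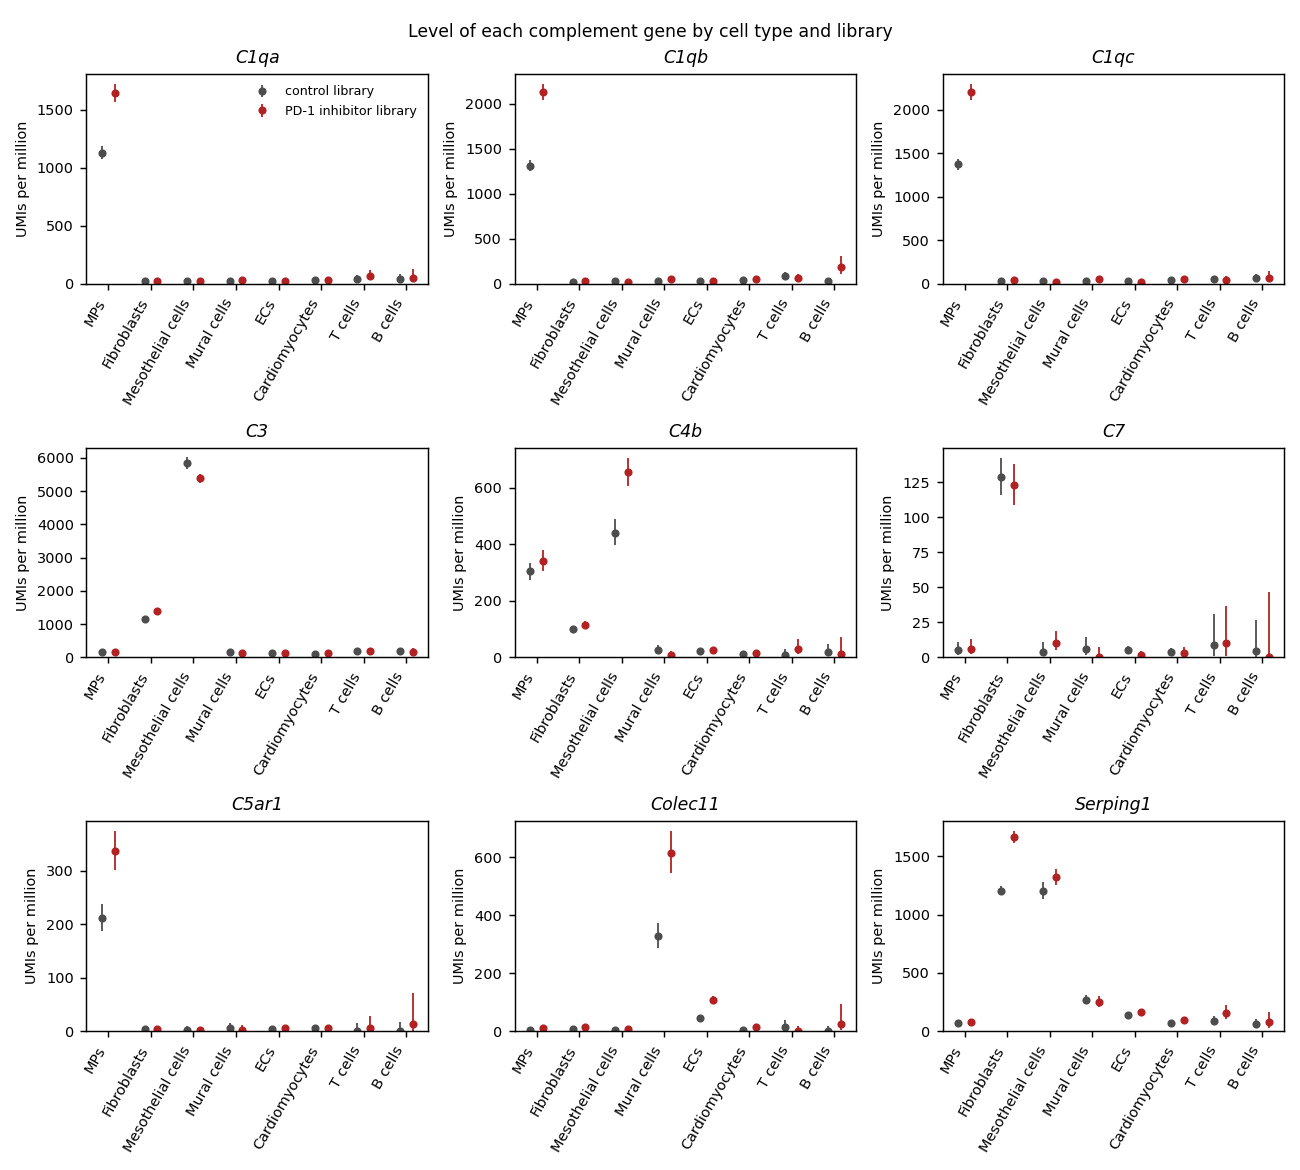
Level of each of the 9 genes (y axis, UMIs per 1000000 UMIs) by cell type (x axis) in the control library (grey) and the PD-1 inhibitor library (red). Points are sums over nuclei and bars are exact 95% Poisson intervals for counting error; C1qb in MPs lies at 1309 and 2126, and C3 in mesothelial cells at 5839 and 5382.

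Factor D, encoded by Cfd, cuts factor B in the alternative pathway and is made by fat cells. Adipocyte nuclei numbered 154 in the control library but 16 with PD-1 inhibitor, and held 441 and 19 Cfd UMIs, or 1221 and 339 CPM (log2 ratio -1.81, -2.60 to -1.19). Elsewhere Cfd had 49 and 8 UMIs in ECs (-2.50, -3.87 to -1.49), 50 and 2 in fibroblasts (-4.04, -7.43 to -2.42) and 56 and 3 in cardiomyocytes (-3.75, -6.28 to -2.34). The part of the smaller number of adipocyte nuclei in these counts was not tested. Properdin, the stabiliser of the C3 convertase encoded by Cfp, went from 306 to 377 CPM in MPs (0.30, 0.10 to 0.51) and from 16.2 to 32.3 in cardiomyocytes (0.99, 0.40 to 1.61). The MP sub-clusters parted, with Cfp at 362 and 490.1 CPM in the Lyve1-high one (0.44, 0.19 to 0.68) and at 230 and 164 in the Ccr2-high one (-0.48, -0.97 to -0.02), a difference that was not tested.

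C7 (ENSMUSG00000079105, chr15:4988762-5063740) encodes a protein of the terminal pore and had at least 50 UMIs in fibroblasts only. Its levels there were 129 CPM (116 to 143) and 123 (109 to 138), and with a log2 ratio of -0.07 (-0.30 to 0.16) a difference was not detectable at this depth. The cluster led by Cilp and Cd248 went from 164 to 122 CPM (-0.43, -0.79 to -0.07), while the cluster led by Rgs17 and Fbn2 had 112 and 124 (0.15, -0.15 to 0.45). Thinning gave a log2 ratio of -0.48 for all fibroblasts, and the mean over nuclei -0.35. A C7 UMI was seen in 9.67% of control and 6.32% of PD-1 inhibitor fibroblast nuclei, or in 5.41% and 3.40% after thinning, against 0.236% and 0.278% of thinned cardiomyocytes. The result for C7 thus depended on the measure, with fewer nuclei holding a UMI and sums that did not differ beyond counting error. Of the other terminal genes C6 alone reached 50 UMIs in a type, MPs, and went from 39.5 to 73.5 CPM (0.89, 0.37 to 1.43).

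Serping1 (ENSMUSG00000023224, chr2:84765387-84775444) encodes the C1 inhibitor, which blocks C1r, C1s and the proteases of the lectin pathway. In fibroblasts it went from 1205 CPM (1165 to 1246) to 1665 (1612 to 1718), a log2 ratio of 0.47 (0.40 to 0.53), beside a median of 0.08 for genes of its group of span. Mesothelial cells had 1206 CPM (1131 to 1285) and 1322 (1253 to 1394), a log2 ratio of 0.13 (0.01 to 0.25). Both types were thus level in the control library, within their intervals, and fibroblasts stood above mesothelial cells with PD-1 inhibitor. Both fibroblast clusters were higher, from 1489 to 2030 CPM in that led by Cilp and Cd248 and from 1068 to 1398 in that led by Rgs17 and Fbn2. The 10 fibroblast markers themselves summed to 36643 and 46872 CPM in fibroblasts, with Gsn the most abundant and Dpep1 at 0, and their part in the fibroblast ratios of Serping1, C3 and C1s1 was not tested. Thinned shares of fibroblasts for Serping1 were 37.7% and 47.1%, against 3.62% and 5.28% of cardiomyocytes.

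Serping1 was lower in the remaining types. Mural cells had 269 and 250 CPM (log2 ratio -0.10, -0.45 to 0.24). ECs had 139 and 167 (0.26, 0.07 to 0.46), and their lymphatic-like cluster, led by Mmrn1 and Reln, had 273 and 424 (0.63, 0.17 to 1.11). Cardiomyocytes, at 67.3 and 93.9 CPM (0.48, 0.17 to 0.79), were near MPs, at 66.2 and 74.5. Whether either level is background was not tested. T cells had only 20 and 31 UMIs (0.86, 0.02 to 1.77).

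C5ar1 (ENSMUSG00000049130, chr7:16246743-16259540) encodes a receptor for C5a, the fragment that draws in and activates myeloid cells. MPs had 212 CPM (188 to 238) in control nuclei and 337 (302 to 374) with PD-1 inhibitor, a log2 ratio of 0.67 (0.43 to 0.90). The other 5 large types lay at 1.93 to 5.78 CPM. A C5ar1 UMI was seen in 16.4% and 23.2% of MP nuclei, or in 9.52% and 12.6% after thinning, against 0.394% and 0.185% of thinned cardiomyocytes. C5ar1 was higher in both MP sub-clusters, from 271 to 428 CPM in the Lyve1-high one (0.66, 0.39 to 0.93) and from 135 to 207 in the Ccr2-high one (0.62, 0.12 to 1.12). Neutrophils carry this receptor too, and the 6 neutrophil markers summed to 118 and 98.3 CPM in MPs, with Csf3r the most abundant and Ngp at 0. Of other marker lists in MPs, 4 mast cell markers summed to 35.0 and 60.6 CPM (Cpa3 the most abundant, none at 0) and 5 cytotoxic lymphocyte markers to 16.4 and 55.6 (Klrk1 the most abundant, Klrb1c at 0), and the part of these 3 lists in the C5ar1 ratio was not tested. The neighbouring receptor gene C5ar2 had 51.4 and 51.6 CPM in MPs (0.01, -0.54 to 0.55), and 13.1 and 21.7 in ECs (0.72, 0.13 to 1.35). C3ar1, the receptor for C3a, went from 224 to 309 CPM in MPs (0.46, 0.23 to 0.70), and Vsig4, a receptor for C3 fragments, from 69.2 to 94.3 (0.45, 0.02 to 0.87).

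**Figure D2:**
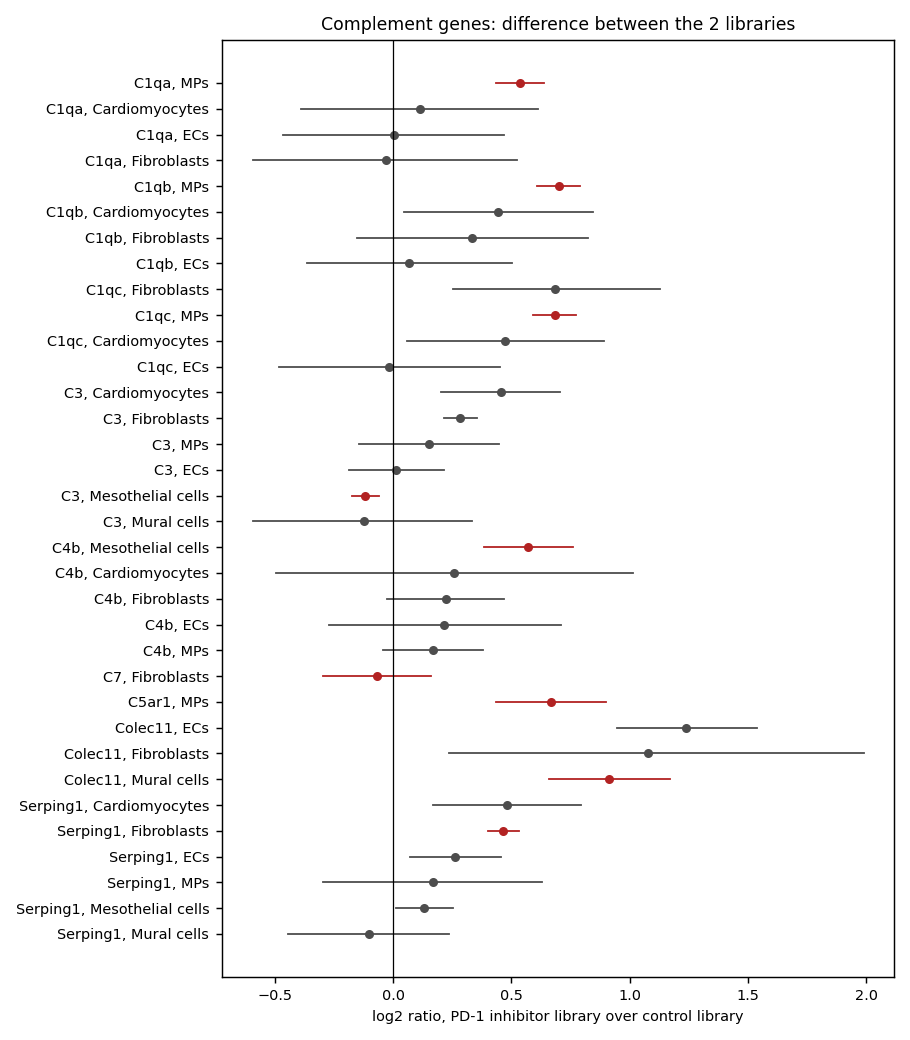
Log2 ratio of PD-1 inhibitor over control (x axis) for each gene and large cell type with at least 50 UMIs (y axis). Points are ratios of sums, lines are exact 95% intervals for counting error, and red marks the type in which a gene was highest; C3 in mesothelial cells lies at -0.12 and Colec11 in mural cells at 0.91.

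Levels of different genes were compared per kb of gene span, each in its highest type. Control levels on this scale were 421 CPM per kb for C1qc, 392 for C1qa, 242 for C3, 216 for C1qb and 120 for Serping1. C4b had 28.5, C5ar1 16.6, Colec11 11.2 and C7 1.72. With PD-1 inhibitor C1qb, at 351 CPM per kb, stood above C3, at 223, and the order of the others was the same. The order rests on the division by span, since undivided C3, at 5839 CPM, stood above C1qc, at 1372, and C1qa, at 1131.

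Of the 57 genes on the complement list 55 had a UMI, 38 had at least 50, and Mbl1 and Itgam were at 0. Itgam is known from macrophages, so its 0 may not mean absence, and the cause was not tested. Among the 7 members that reached 50 UMIs in MPs, C1qb, C1qc and C5ar1 were at least 1.5 times higher with PD-1 inhibitor and none was as much lower, beside 6.95% of 7987 genes higher and 6.89% lower. Since the members were chosen on these values, nothing further is read from such counts. In ECs 1 of 7 members (Colec11) was at least 1.5 times higher, beside 5.97% of genes higher and 4.41% lower. In fibroblasts it was 2 of 8 (C1qc and Colec11), beside 5.99% higher and 4.49% lower, and in mural cells 1 of 3 (Colec11), beside 7.81% higher and 8.71% lower. In cardiomyocytes it was 0 of 6, beside 8.32% higher and 8.19% lower, and in mesothelial cells 0 of 3, beside 5.76% higher and 6.19% lower. No member was at least 1.5 times lower in these 6 types.

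Over the whole list, medians of the log2 ratios stood beside those of all genes as follows. In MPs the median was 0.17 over 26 list genes and -0.03 over all genes. In ECs they were 0.23 over 25 list genes and 0.01 over all, in fibroblasts 0.26 over 23 and -0.01, and in cardiomyocytes 0.45 over 23 and -0.01. Mesothelial cells had 0.15 over 14 list genes and 0.00 over all, and mural cells -0.04 over 12 and -0.02, so that in mural cells the list lay slightly below all genes. Span differs between the list and all genes: 11 of the 38 list genes with at least 50 UMIs lie in the shortest of the 5 groups of span, and the median of this group was 0.22 in MPs, 0.23 in ECs, 0.24 in fibroblasts, 0.29 in cardiomyocytes, 0.05 in mesothelial cells and 0.25 in mural cells. The part of span in the list medians was not tested.

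**Figure D3:**
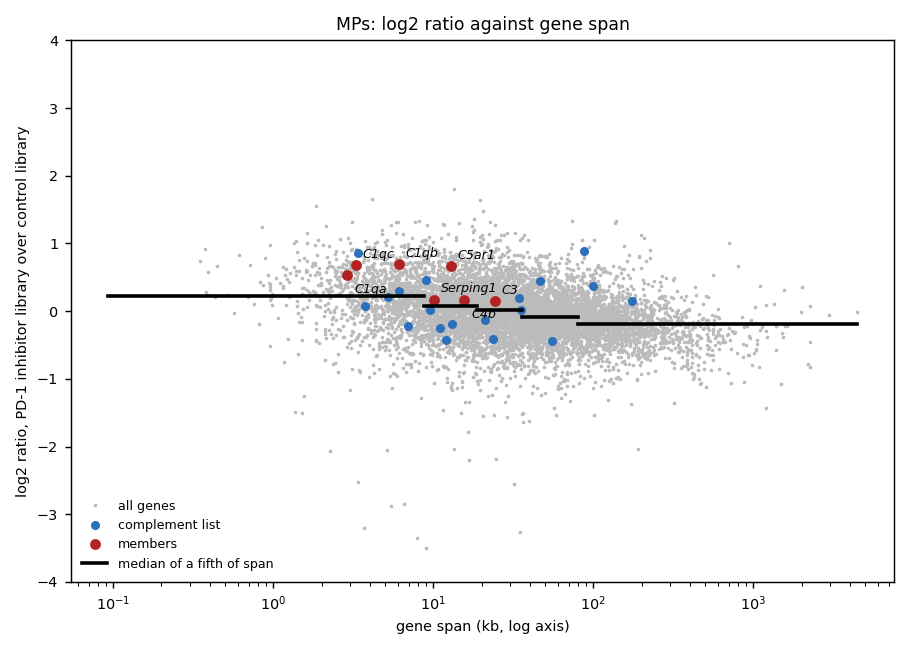
Log2 ratio of PD-1 inhibitor over control in MPs (y axis) against gene span in kb (log x axis), with 1 point per gene. Black lines are medians of 5 groups of span, from 0.22 for the shortest to -0.19 for the longest, and C1qb and C5ar1 lie above their lines at 0.70 and 0.67.

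Regulators shield host cells from complement. In ECs intervals lay above 0 for Serping1, for Clu, which went from 511 to 779 CPM (log2 ratio 0.61), for Cd59a, a blocker of the pore, from 160 to 236 (0.56), for Thbd, from 442 to 557 (0.33), and for Cd55, from 134 to 156 (0.22). Cd59a and Cd55 have near copies, Cd59b and Cd55b, and their counts are uncertain. Cd46 was the regulator with an interval below 0 there, and was lower in 3 types, at 116 and 75.2 CPM in ECs (-0.63), 69.0 and 47.8 in fibroblasts (-0.53) and 54.8 and 32.8 in cardiomyocytes (-0.74).

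Other regulators and receptors also differed in some of the types. In fibroblasts Cd55 (0.26), Cd59a (0.68) and Clu (0.41) were higher, and in cardiomyocytes Cd59a (0.34), Clu (0.45) and Cd93 (0.45). C1qbp, which binds C1q but lies mainly in mitochondria, had 0.58 in ECs, 0.74 in fibroblasts and 0.55 in cardiomyocytes. Its intervals were above 0 in all 3 types. In mural cells Vtn went from 838 to 1064 CPM (0.34) and Cr1l from 225 to 154 (-0.54). In mesothelial cells Csmd1 went from 88.3 to 213 CPM (1.26, 0.88 to 1.68). In B cells, with 175 and 79 nuclei, Cd55 went from 482 to 902 CPM (0.91) and the C3d receptor gene Cr2 from 1635 to 673 (-1.27).

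The genes most like each member were found by Pearson correlation of log2 levels over 38 points, the 19 named clusters in both libraries, which share library and depth. C1qa was most like F13a1 (r = 0.95), C1qb (0.92) and C1qc (0.89). C1qb was most like C1qa (0.92), C1qc (0.84) and Lair1 (0.84), and C1qc like Pirb (0.90), C1qa (0.89) and Lyz2 (0.88). The C1q genes were thus among each other's nearest genes, except that C1qb was not among the first 3 of C1qc. C3 was most like Igfbp6 (0.87), Pcolce (0.84) and Efemp1 (0.84), and Serping1 like Bicc1 (0.89), Col3a1 (0.88) and Col6a2 (0.86). C5ar1 was most like Cd300c2 (0.83), Rnf180 (0.78) and Gm10134 (0.77), and C7 like Aox3 (0.78), Gm9947 (0.77) and Mmp3 (0.76). C4b was most like Adgrg6 (0.71), Eya4 (0.65) and Tpcn2 (0.63), and Colec11 like Hrct1 (0.68), Pdgfrb (0.63) and Bivm (0.62). These r values were lowest for C4b and Colec11.

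Promoter sequence was found in RefSeq (GRCm38.p6) for 6 members, and not for C1qa, C4b and Serping1. Windows were searched on both strands for 4 motifs: GAGGAA, a core bound by PU.1 in myeloid cells, TGCTGA, a core bound by MAF proteins, GAAA followed by any 2 bases and GAAA, as in interferon response elements, and TTGC followed by any 2 bases and AA, as bound by C/EBP proteins. Of 32851 whole promoter windows, 28.3%, 19.5%, 3.44% and 10.8% held them. The parts printed below, of 250 (C1qb), 99 (C1qc) and 203 (Colec11) bases, are shorter than these windows, so the shares are not for their length. The neighbours C1qb and C1qc, which differed alike in MPs, and Colec11, which was higher in 2 cell types, are shown 5′ to 3′ on the minus strand, only as far as no annotated transcript covers them, with motif matches in capitals. C1qb, at chr4:136886201-136886450, holds TGCTGA and GAGGAA without overlap. C1qc, at chr4:136893066-136893164, holds GAGGAA on the opposite strand, and Colec11, at chr12:28623378-28623580, holds the interferon type motif. Of the members not shown, C3 holds TGCTGA on the opposite strand and the C/EBP type motif. C7 holds TGCTGA on the opposite strand, and C5ar1 holds TGCTGA. No GAGGAA was found in C5ar1, which was also highest in MPs, or in C3 and C7. A match describes the letters alone.
C1qb: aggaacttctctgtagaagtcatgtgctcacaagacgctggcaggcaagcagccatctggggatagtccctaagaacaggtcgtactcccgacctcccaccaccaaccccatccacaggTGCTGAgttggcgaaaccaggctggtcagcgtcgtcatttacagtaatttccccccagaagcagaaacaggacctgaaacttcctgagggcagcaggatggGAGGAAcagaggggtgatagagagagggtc
C1qc: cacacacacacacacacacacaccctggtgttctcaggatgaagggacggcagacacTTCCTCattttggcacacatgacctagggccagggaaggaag
Colec11: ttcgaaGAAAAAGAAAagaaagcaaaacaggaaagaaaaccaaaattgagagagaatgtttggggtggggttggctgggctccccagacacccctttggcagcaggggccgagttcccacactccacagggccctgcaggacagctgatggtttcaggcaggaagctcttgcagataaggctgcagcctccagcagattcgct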

How the data were processed

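The authors prepared nuclei with a GEXSCOPE kit and deposited raw UMI counts per gene and barcode, with gene and barcode names. The submitters' processing notes name the build GRCm38 (mm10), and the aligner and counter are not given in the sources used here. Members and lists were chosen with earlier results of these data known.

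Barcodes with at least 200 genes and no more than 20% of UMIs from mitochondria were kept. Scrublet doublets, 5.85% of control and 3.87% of PD-1 inhibitor barcodes, were removed, with exact neighbours, a choice made after seeing the data. In scanpy 1.11.5, 2000 variable genes without the complement list, 30 components and 15 neighbours were clustered with leidenalg 0.10.2 at resolution 1. A name needed at least 3 markers, each in 5% of nuclei and over 2 times its level elsewhere. A cluster stayed unnamed with Mki67 or Top2a in 50% of nuclei or 50% of another type's markers detected, both set after clusters were seen, or with fewer markers than needed. Unnamed clusters held 141 control and 99 PD-1 inhibitor nuclei. Sums per type and library have exact Poisson, Clopper-Pearson or conditional binomial intervals (scipy 1.17.1). Gene spans are from GENCODE vM21. The ratio and thinning steps were tested on simulated data.

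Named are the 9 members, complement genes with at least 50 UMIs in a type whose interval leaves 0 or that act at a member's step, and for each member the 3 genes most like it among genes with at least 200 UMIs. A gene that this rule names is not reported here. Other names are markers or lead a cluster.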

Additional observations from a re-analysis of the deposited data

Results flagged for a closer look

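C3 differed in direction between cell types. Its log2 ratio was 0.28 in fibroblasts and 0.45 in cardiomyocytes but -0.12 in mesothelial cells, with intervals on opposite sides of 0. The mesothelial value was near 0 after thinning (-0.012) and as a mean over nuclei (-0.039). In cardiomyocytes the ratio left 0 in neither large cluster, and whether C3 there is background was not tested. The difference between the types was not tested.

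Complement genes were also summed in nuclei outside the comparisons. The removed barcodes were 592 doublets and 83 over the mitochondrial limit in control, and 308 and 15 with PD-1 inhibitor. They were pooled over all cell types, and the share of all genes that differed among them is not given here. Among barcodes removed by the filters or as doublets, 675 control and 323 PD-1 inhibitor, log2 ratios were 0.81 for C1qb, 0.76 for C1qc, 0.70 for C3, 0.64 for C4b, 0.67 for Colec11 and 0.61 for Serping1, while the intervals of C1qa (0.18), C5ar1 (0.11) and C7 (-0.16) held 0. In the unnamed cluster led by Wif1 and Chad, Serping1 went from 247 to 434 CPM, a log2 ratio of 0.81, and the intervals of the other members, with C3 at -0.22 and C4b at -0.28, held 0. The cause was not tested.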

How the results depend on the processing

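In its highest cell type each member's log2 ratio kept its direction under 14 alternatives, or 13 in mesothelial cells, a single cluster for which the same mix of subtypes gives no value. The exception was C7, whose interval held 0 and which lay above 0 in 1 of 14. Leaving out barcodes found in both libraries was an alternative chosen after seeing the data. Some values left the main interval, and the cause was not tested. Centred on genes of like span, C1qa, C1qb and C1qc in MPs had 0.32, 0.48 and 0.46, and Serping1 in fibroblasts 0.38. Thinned to 500 UMIs, C4b and C3 in mesothelial cells had 0.35 and -0.012, and C7 in fibroblasts -0.48. As a mean over nuclei, C3 had -0.039 and C7 -0.35. With at least 500 genes, Colec11 in mural cells had 0.47. In other types, C1qc in cardiomyocytes reversed to -0.12 at no more than 5% mitochondrial UMIs, 5 values moved and 343 did not.

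A minimum of 200 UMIs leaves fewer genes, and the percentages at least 1.5 times higher and lower were then 2.84 and 2.44 (ECs), 2.58 and 2.4 (fibroblasts), 5.03 and 6.7 (cardiomyocytes), 3.31 and 3.76 (MPs), 3.21 and 4.1 (mural cells), and 1.18 and 1.13 (mesothelial cells).

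Thinning lowers every share by construction. Thinned shares, control first, were 37.1% and 44.8% for C1qa, 39.4% and 53.5% for C1qb, 40.2% and 55.8% for C1qc, and 9.52% and 12.6% for C5ar1, all in MPs. C3 had 67.6% and 67.3% and C4b 14.6% and 19.0% of mesothelial cells, C7 5.41% and 3.40% and Serping1 37.7% and 47.1% of fibroblasts, and Colec11 15.8% and 26.1% of mural cells. Few nuclei limit glial cells and adipocytes most, with 10 and 16 in the PD-1 inhibitor library.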
